A study of Mus musculus with 21 samples.

Results

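The genes described here are 39 glycolysis and hypoxia response genes of the mouse, chosen by name and function. All 39 were found by symbol among the 26852 Ensembl genes of the table, 26686 of which carried a mouse symbol. By role they are 2 glucose transporters, 11 enzymes of upper glycolysis, 6 enzymes of lower glycolysis, 6 genes for the fate of pyruvate and lactate, 4 HIF subunits and prolyl hydroxylases, and 10 genes known to respond to low oxygen. Of these, 36 passed the filter on low values, a mean over all 21 libraries of at least 10 normalized counts (3.32 on the log2 scale), and were tested. Aldoc, Ankrd37 and Car9 did not pass, with mean log2 values of 0.72, 1.85 and 1.02.

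The data are bulk RNA sequencing of Nes low mesenchymal cells sorted by flow cytometry from the bone marrow of Nestin-GFP reporter mice on the immunodeficient NSG strain, which lacks T, B and NK cells. The 3 ctrl libraries come from mice that received no leukemia, whose age is not stated separately. The other 18 come from unconditioned hosts, 8 to 12 weeks old at transplantation and 13 to 20 weeks old when killed, that received an intravenous injection of HL60 or ML1, both human acute myeloid leukemia (AML) cell lines. The leukemic cells carried sLP-mCherry, a secreted, lipid-permeable mCherry expressed from a mouse PGK promoter and taken up by neighbouring cells, so a ch+ cell is one that took up label. In early disease each line gave 3 ch+ and 3 ch- (unlabelled) libraries, and in late disease 3 libraries whose titles carry no ch+ or ch- mark. As the study describes them, the unlabelled cells lay in the same marrows as the labelled ones, but no ch+ library shares its number with a ch- library, so they were tested as independent libraries, and the tests of ch+ against ch- below leave any shared marrow out of account. In the labels, the treatment field of the ML1 late libraries reads unengrafted while their titles and time point place them in late ML1 disease, and the titles were followed. The extraction protocol in the labels speaks of CD31+ endothelial cells, whereas the source name gives Nes low mesenchymal cells and was followed. Libraries are named below by group and by the replicate number in their titles. Nothing in the labels says that replicates came from separate animals, so the p-values measure the spread between libraries, which may be technical.

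Glycolysis turns glucose into pyruvate, which is either reduced to lactate by lactate dehydrogenase or passed to mitochondria unless PDK kinases block pyruvate dehydrogenase. When oxygen is plentiful, EGLN prolyl hydroxylases mark the alpha subunits HIF1A and EPAS1 (HIF-2 alpha) for degradation, and when it is scarce the stabilised subunits drive glycolytic and hypoxia response genes, so HIF activity is set largely at the protein level, which RNA does not measure. The bone marrow is a tissue of low oxygen tension, and hematopoietic stem cells there rely largely on glycolysis.

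Values are regularized log2 normalized counts as made by the authors, with 7 groups of 3 libraries, and the read depth of each single library is not given in the sources used here. They ran from −2.33 to 22.44 over the table, and within a group Pearson's r between libraries over the tested genes was 0.935 to 0.976. Median within-group SD was 0.21 for genes with a mean log2 value between 0 and 2, 0.44 between 2 and 4, 0.55 between 4 and 6, 0.42 between 6 and 8, 0.27 between 8 and 10 and 0.18 between 10 and 12. Several abundant enzymes (Gapdh, Pgk1, Ldha, Eno1, Aldoa, Tpi1 and Pgam1) have near-identical pseudogene copies between which the authors' read assignment could have split reads.

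Markers of the sorted cells were present in every library: all 13 of 13 genes listed for Nes low mesenchymal and CXCL12-abundant reticular (CAR) cells passed the filter, Cxcl12 being the most abundant. Group means ran from 15.19 to 16.25 for Cxcl12 and from 12.60 to 14.76 for Lepr, against 5.50 to 7.18 and 4.57 to 5.96 for the endothelial genes Cdh5 and Pecam1. The summed linear level of the 13 genes, given as log2, was 16.40, 15.87 and 16.05 in ctrl, 17.09, 17.28 and 17.01 in HL60 late and 17.09, 17.09 and 17.25 in ML1 late. It was 16.40, 15.92 and 16.45 in HL60 ch-, 16.81, 16.53 and 16.74 in HL60 ch+, 16.33, 16.75 and 16.68 in ML1 ch- and 17.00, 17.05 and 16.63 in ML1 ch+. Against ctrl, 9 were higher and 1 lower in HL60 late, 9 higher and 2 lower in ML1 late, 5 and 6 higher in HL60 and ML1 ch+, and 0 and 5 higher in HL60 and ML1 ch-, by limma at an adjusted p under 0.1. Marker lists of other stromal cells summed higher in the ctrl libraries. Osteoblast genes summed to 20.26, 20.41 and 20.71 and chondrocyte genes to 17.72, 16.83 and 17.11. Markers of other cells moved as well, and in bulk RNA fewer cells of a type and less RNA per cell cannot be told apart.

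The early libraries carried more red cell and neutrophil RNA than ctrl, although the methods describe bead depletion of CD45+ cells and staining for CD45, Ter119 and CD31 before the sort. The 9 red cell genes, Hbb-bs the most abundant, summed to 8.42, 8.80 and 9.47 in ctrl, 12.91, 12.94 and 12.32 in HL60 ch-, 13.10, 13.66 and 12.10 in HL60 ch+, 7.11, 6.77 and 6.72 in HL60 late, 12.83, 13.33 and 12.95 in ML1 ch-, 13.52, 12.53 and 13.03 in ML1 ch+ and 6.70, 6.67 and 6.82 in ML1 late. All 12 early libraries thus stood above all ctrl libraries and all 6 late libraries below them. The 9 neutrophil genes, Ngp the most abundant, summed to 6.34, 6.36 and 8.94 in ctrl, 9.99, 9.60 and 9.84 in HL60 ch-, 10.07, 10.54 and 9.39 in HL60 ch+, 6.82, 6.59 and 6.27 in HL60 late, 9.77, 10.64 and 10.93 in ML1 ch-, 10.50, 9.45 and 10.73 in ML1 ch+ and 6.36, 6.46 and 6.59 in ML1 late. Among ctrl libraries, 375 stood above the other two in this sum. Against ctrl, 8 and 9 red cell genes were higher in HL60 and ML1 ch+ and 7 and 9 in ch-, and 8 and 8 neutrophil genes were higher in ch+ and 7 and 7 in ch-. Of 5 tested of 9 further blood cell genes (Lyz2 the most abundant), 4 and 5 were higher in HL60 and ML1 ch+ and 2 and 5 in ch-. Skeletal muscle genes (7 of 13 tested, Eno3 the most abundant) were higher for 4 and 5 in ch+ and 1 and 0 in ch-, smooth muscle genes (8, Mylk) lower for 6 and 5 in ch+, 0 and 2 in ch- and 4 and 5 in late, and osteoblast genes (10, Col1a1) lower for 3 and 3 in ch+, 0 and 0 in ch- and 7 and 9 in late, with 1 higher in HL60 late. Endothelial genes (8 of 10 tested, Cdh5) were lower for 0 and 4 in late, adipocyte genes (5 of 9 tested, Lpl) lower for 1 and 2 in late and 1 and 1 in ch+ and higher for 2 and 2 in ch+ and 0 and 2 in ch-, and proliferation genes (8 of 10 tested, Mki67) lower for 2 and 2 in late and higher for 1 and 1 in ch+. Late disease also had 4 and 4 red cell, 0 and 2 neutrophil, 1 and 1 further blood cell and 1 and 1 skeletal muscle genes lower than ctrl. No marker list stood at 0, since the regularized scale has no zero, and the part of these cells in the member results was not tested.

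In the ctrl libraries, compared per kilobase of merged exons so that genes of unequal length can be set side by side, the members differed widely in level. Epas1 had the highest log2 level per kilobase (10.18), followed by Ldha (8.81), Aldoa (8.16), Pgam1 (8.00), Pkm (7.64), Gapdh (7.50), Hif1a (7.44), Bnip3l (7.36), Pdk4 (7.34) and Eno1 (7.04). The lowest of the tested members were Slc16a3 (2.30), Egln3 (2.55) and Eno2 (2.55), and the untested Ankrd37, Car9 and Aldoc stood at 1.19, −0.27 and −0.42. Of the paralog pairs, Slc2a1 (6.18) stood above Slc2a3 (3.65), Ldha above Ldhb (6.38), Hk1 (5.12) above Hk2 (3.59) and Pdk4 above Pdk1 (3.05).

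Each disease group was set against ctrl, ch+ against ch- and late against ch+ in each line, and HL60 against ML1 at each stage, by limma over all 12976 tested genes, 2-sided, with deregulated meaning a Benjamini-Hochberg adjusted p under 0.1. The comparisons against ctrl share the same 3 ctrl libraries. In HL60 late, 10 of the 36 tested members were deregulated (13.7% of all tested genes were), 5 higher (background 6.46%) and 5 lower (7.24%). Leaving out ctrl 374 gave 5 deregulated members, HL60 late 397 gave 6 and HL60 late 398 gave 4. Here and below, the share of all tested genes called was not counted in fits that left out a library. Such counts therefore do not show whether the members alone or all genes changed. In ML1 late, 13 of 36 were deregulated (22% of all tested genes), 7 higher (9.89%) and 6 lower (12.1%), and leaving out each of the 21 libraries in turn gave 9 to 14. The median log2 difference of the members was −0.21 in HL60 late and −0.10 in ML1 late, against 0.0056 and 0.028 over all tested genes.

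Early disease gave fewer calls. In HL60 ch+ against ctrl, 3 of 36 were deregulated (5.33%), all 3 lower (2.46%), with 0 when ctrl 373 was left out and 1 when ctrl 374, HL60 ch+ 524 or HL60 ch+ 525 was. In ML1 ch+ it was 3 of 36 (6.69%), 1 higher (3.47%) and 2 lower (3.22%). In HL60 ch- limma called 0 of 36 (1.57%), with 4 at an unadjusted p under 0.05, and 1 was called when ctrl 375, HL60 late 398 or 399, ML1 ch- 543 or 546, or ML1 ch+ 539 or 541 was left out. In ML1 ch- 1 of 36 was called (2.34%), and it was higher (1.42%), with 0 when ctrl 373 or 374 or ML1 ch- 544 or 546 was left out and 2 when ctrl 375 was. Between ch+ and ch- it was 1 of 36 in HL60 (3.92%) and 1 of 36 in ML1 (4.25%), both lower in ch+ (1.66% and 1.91%). The HL60 count became 0 without HL60 ch- 527 or 528 or HL60 ch+ 525, and the ML1 count 0 without ML1 ch- 543 or ML1 ch+ 539 and 2 without ctrl 373, HL60 ch- 527 or ML1 ch- 546. From ch+ to late, 4 of 36 were deregulated in HL60 (10.2%), 3 higher (4.25%) and 1 lower (5.95%), with 2 when HL60 ch+ 524 was left out. In ML1 it was 8 of 36 (16.9%), 6 higher (7.07%) and 2 lower (9.83%), with 4 without ML1 ch+ 539, ML1 late 582 or ML1 late 583 and 5 without ML1 ch+ 541 or ML1 late 581.

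The totals of the libraries differed with stage. Summed linear values, in mega-counts, were 11.9 to 14.2 in ctrl, 8.41 to 9.02 in HL60 late and 7.27 to 7.46 in ML1 late, and the most abundant gene in every library was the ribosomal RNA gene CT010467.1. Rescaling every library to the same total moved the median log2 difference of all tested genes to 0.58 in HL60 late and 0.84 in ML1 late against ctrl, and to 0.47 and 0.79 in late against ch+. On that scale 14 of 36 members were higher (39.7% of all tested genes) and 1 lower (2.92%) in HL60 late, and 22 higher (63%) and 1 lower (4.7%) in ML1 late. In each line 16 of the 36 members (44.4%) went from a negative to a positive late difference from ctrl, as did 35.9% of all tested genes in HL60 and 36.4% in ML1, and of the 16 Pkm and Ldha were deregulated on the deposited scale. Rescaled values are given below for Hif1a and Egln1 and wherever a deregulated member changed direction or lost its call.

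**Figure D1:**
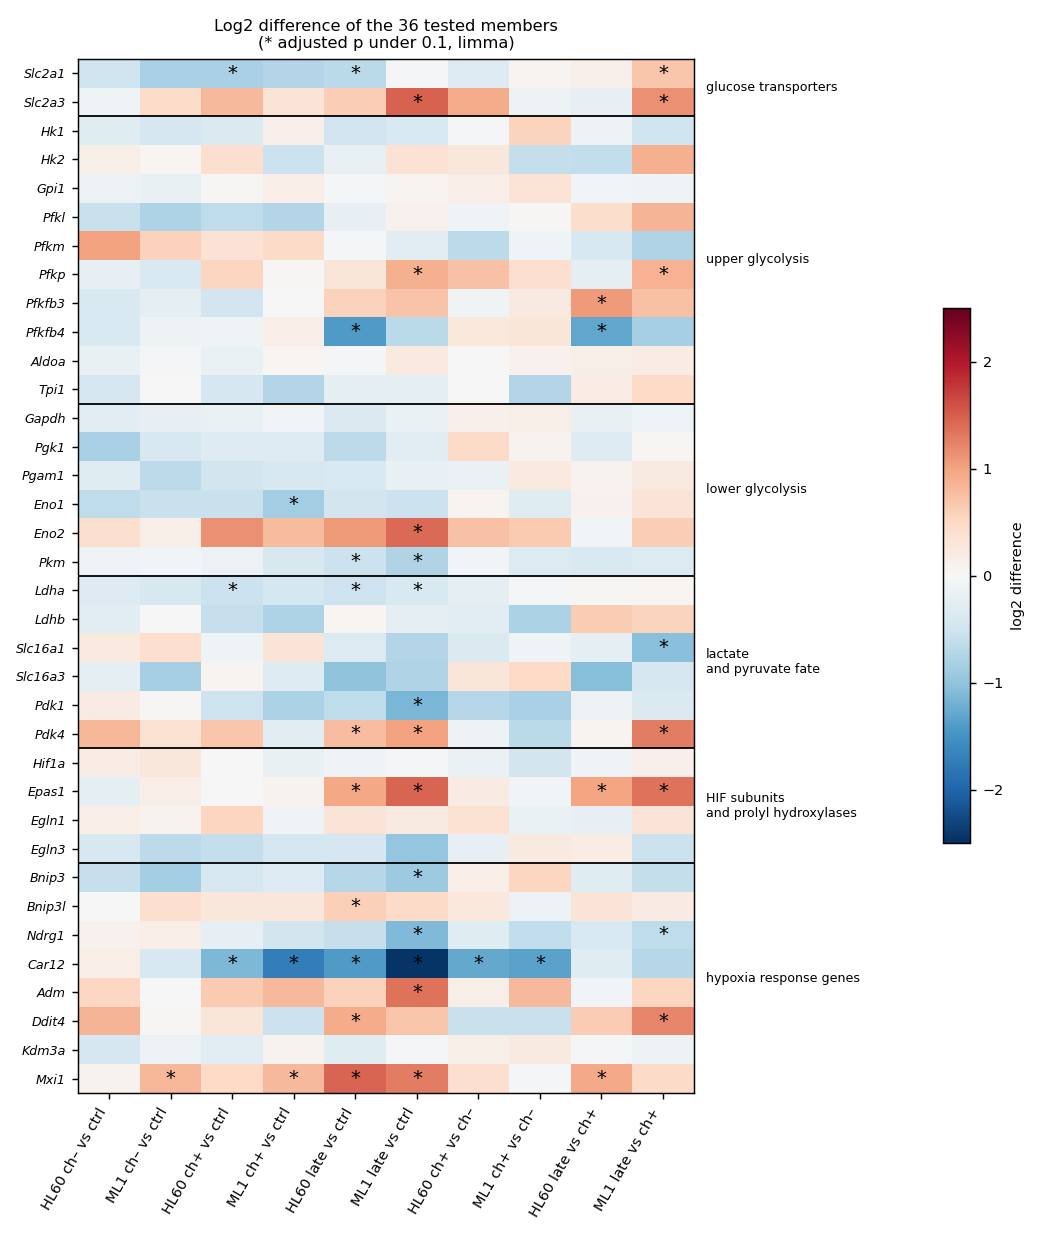
Log2 differences (colour, from limma) of the 36 tested members, ordered by role on the vertical axis, in 10 comparisons on the horizontal axis, with a star at an adjusted p under 0.1. Epas1 and Mxi1 were higher in late disease in both lines (Epas1 0.98 and 1.45, Mxi1 1.46 and 1.28) and Car12 lower (−1.42 and −2.46).

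Epas1, Hif1a, Egln1 and Egln3 are the oxygen-sensing members. Epas1 (ENSMUSG00000024140, chromosome 17 from 86753700 to 86833410, GRCm38) encodes HIF-2 alpha, an oxygen-labile subunit that pairs with ARNT. Epas1 stood at 12.86, 12.83 and 12.29 in the ctrl libraries, 12.53, 12.16 and 12.63 in HL60 ch-, 12.85, 12.57 and 12.51 in HL60 ch+ and 13.69, 13.70 and 13.51 in HL60 late. In ML1, Epas1 stood at 12.77, 12.99 and 12.70 in ch-, 12.96, 12.62 and 12.65 in ch+ and 14.25, 13.96 and 14.11 in late libraries. All 6 late libraries stood above all 15 others, ML1 late above HL60 late, and the early groups overlapped with ctrl. The log2 difference from ctrl was 0.98 (SE 0.15, adjusted p = 2.41e-05) in HL60 late and 1.45 (SE 0.15, adjusted p = 1.03e-08) in ML1 late by limma, and from ch+ it was 0.99 (adjusted p = 2.76e-05) and 1.36 (adjusted p = 3.95e-08). These 4 calls were kept in all 21 fits that left out a library. Between lines in late disease Epas1 was lower in HL60 than in ML1, with a difference of −0.47 (SE 0.15, adjusted p = 0.0926), a call lost without HL60 late 397 (−0.50), 398 (−0.50) or 399 (−0.41), ML1 late 581 (−0.40) or 583 (−0.47) or HL60 ch- 527, HL60 ch+ 524 or ML1 ch- 546 (−0.47, the size with all libraries). This line call was also lost without the filter, without the trend and at an adjusted p under 0.05. The Nes low and CAR cell markers, whose sums are given above, also stood higher in the late libraries, and their part in the Epas1 result was not tested.

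Hif1a (ENSMUSG00000021109, chromosome 12 from 73901375 to 73947530) encodes the other main oxygen-labile subunit. Hif1a stood at 10.21, 9.82 and 9.96 in the ctrl libraries, 9.89, 10.24 and 10.42 in HL60 ch-, 10.05, 9.99 and 10.01 in HL60 ch+ and 9.96, 9.85 and 9.95 in HL60 late. In ML1, Hif1a stood at 10.29, 10.35 and 10.21 in ch-, 9.63, 9.92 and 9.91 in ch+ and 9.90, 9.94 and 10.01 in late libraries. All groups overlapped with ctrl except ML1 ch-, whose lowest value stood level with the highest ctrl value, and the ML1 ch+ values lay below those of ML1 ch-. Late differences were −0.079 in HL60 (95% interval −0.39 to 0.23, adjusted p = 0.840) and −0.047 in ML1 (95% interval −0.36 to 0.27, adjusted p = 0.891), and on rescaling to equal totals they became 0.49 and 0.77, or −0.085 and −0.074 relative to the median of all tested genes. In late against ch+ the differences were −0.098 and 0.13. Rescaled they were 0.37 and 0.89, past the threshold in both lines, while the median of all tested genes moved to 0.47 and 0.79. ML1 ch+ less ML1 ch- gave −0.46 (adjusted p = 0.113), which passed the threshold when ctrl 373 or HL60 ch- 527 was left out (−0.46 in both) and under quantile normalization (−0.47).

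Egln1 (ENSMUSG00000031987, chromosome 8 from 124908587 to 124949324) encodes PHD2, the main prolyl hydroxylase acting on HIF alpha subunits. Egln1 stood at 8.78, 8.70 and 8.05 in the ctrl libraries, 8.52, 8.93 and 8.55 in HL60 ch-, 9.12, 9.18 and 8.83 in HL60 ch+ and 8.87, 8.87 and 8.76 in HL60 late. In ML1, Egln1 stood at 8.46, 8.47 and 8.85 in ch-, 8.55, 8.62 and 8.10 in ch+ and 8.62, 8.77 and 8.83 in late libraries. The 3 HL60 ch+ values were above all ctrl values, and the other groups overlapped with ctrl, HL60 late by 1 value. Limma called Egln1 in none of the comparisons, the HL60 ch+ difference from ctrl being 0.53 (adjusted p = 0.191), though rescaled to equal totals it passed the threshold in HL60 late (0.90, or 0.32 relative to the median of all tested genes), ML1 late (1.05, or 0.20) and ML1 late against ch+ (1.08, or 0.29). Egln3 (ENSMUSG00000035105, chromosome 12 from 54178981 to 54203860) encodes PHD3, itself induced by HIF in many cells. Egln3 stood at 3.50, 4.29 and 4.09 in the ctrl libraries, 2.76, 3.86 and 4.08 in HL60 ch-, 4.07, 2.98 and 3.01 in HL60 ch+ and 3.72, 3.94 and 2.93 in HL60 late. In ML1, Egln3 stood at 2.82, 3.03 and 4.08 in ch-, 3.33, 4.46 and 2.78 in ch+ and 2.94, 2.82 and 3.19 in late libraries. It was low and scattered in every group, with groups overlapping except ML1 late, whose 3 values lay below the 3 ctrl values, and limma called it in none of the comparisons, ML1 late against ctrl giving −0.97 (adjusted p = 0.153).

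**Figure D2:**
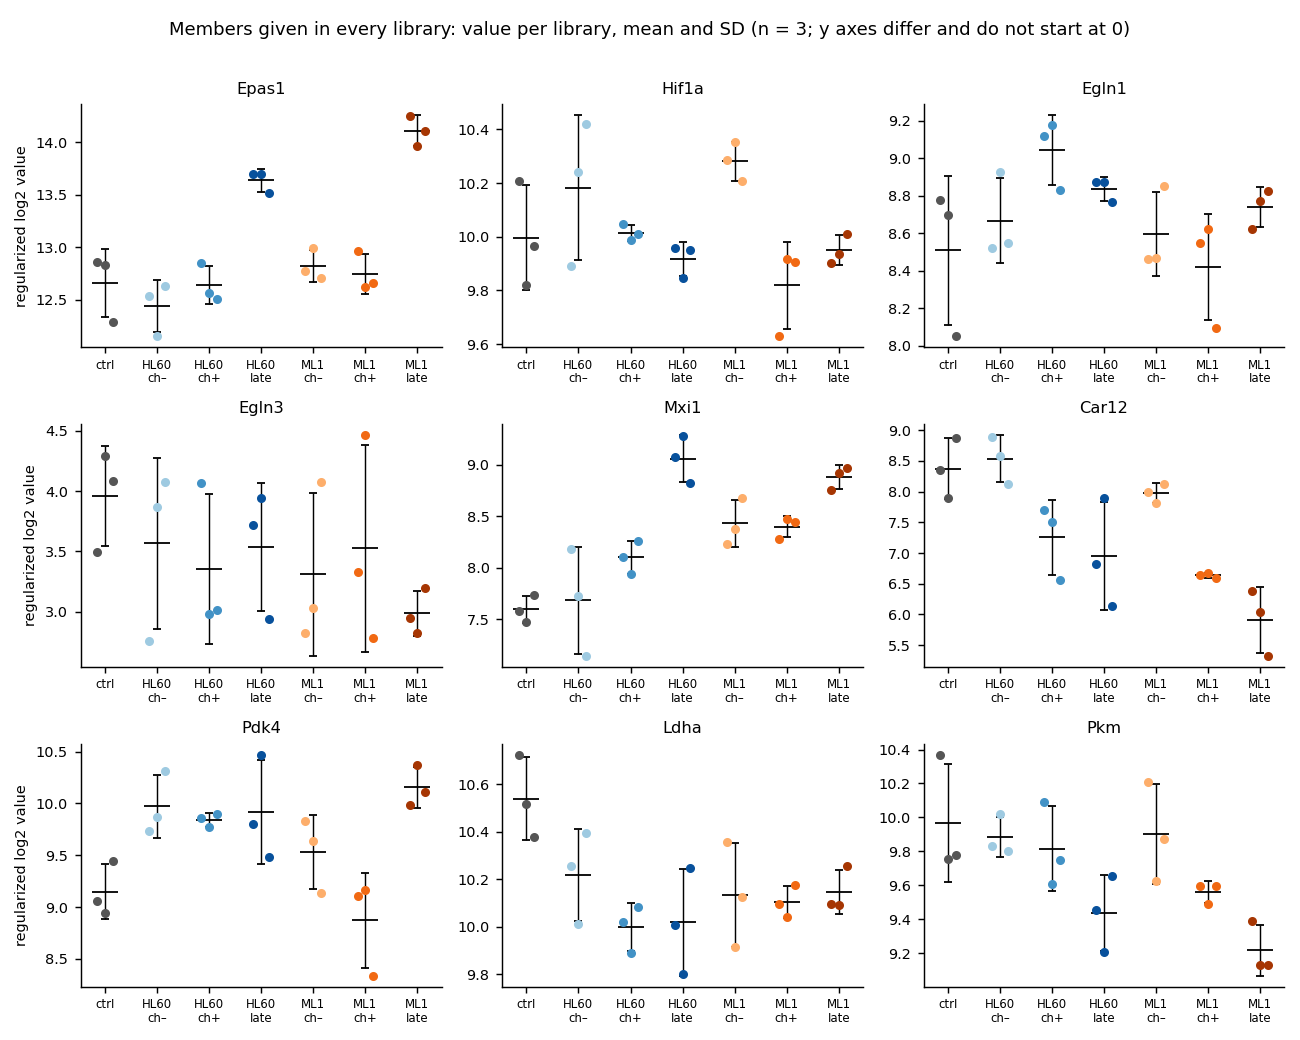
Regularized log2 normalized counts (vertical axis) of Epas1, Hif1a, Egln1, Egln3, Mxi1, Car12, Pdk4, Ldha and Pkm in the 7 groups (horizontal axis), each point being 1 library and each bar the mean with SD of 3 libraries. Epas1 reached 14.25, 13.96 and 14.11 in ML1 late against 12.86, 12.83 and 12.29 in ctrl, while the Ldha and Pkm values in late disease lay below those of ctrl. On rescaling to equal library totals, the late differences in HL60 and ML1 became 0.050 and 0.43 for Ldha and 0.042 and 0.067 for Pkm. The median of all tested genes then stood at 0.58 and 0.84.

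Among the 8 tested hypoxia response genes, 3 were higher and 1 lower in HL60 late (6.46% and 7.24% of all tested genes) and 2 higher and 3 lower in ML1 late (9.89% and 12.1%). Mxi1 (ENSMUSG00000025025, chromosome 19 from 53310518 to 53375810) encodes a MAX-binding repressor that opposes MYC and is induced by HIF. Mxi1 stood at 7.58, 7.47 and 7.74 in the ctrl libraries, 8.18, 7.73 and 7.15 in HL60 ch-, 8.10, 7.94 and 8.26 in HL60 ch+ and 9.07, 9.28 and 8.83 in HL60 late. In ML1, Mxi1 stood at 8.23, 8.38 and 8.67 in ch-, 8.28, 8.47 and 8.44 in ch+ and 8.75, 8.92 and 8.97 in late libraries. All 6 late values exceeded every ctrl and every early value, and all HL60 ch+, ML1 ch- and ML1 ch+ values exceeded every ctrl value. Against ctrl the difference was 1.46 (SE 0.23, adjusted p = 3.09e-05) in HL60 late and 1.28 (SE 0.23, adjusted p = 8.40e-05) in ML1 late, both kept in all 21 fits. It was 0.80 (adjusted p = 0.0371) in ML1 ch+, lost without ctrl 374 (0.74) or ML1 ch+ 539 (0.76). In ML1 ch- it was 0.83 (adjusted p = 0.0643), lost on rescaling to equal totals (0.71) and without ctrl 373 (0.82) or 374 (0.77) or ML1 ch- 544 (0.86) or 546 (0.71). The HL60 differences were 0.51 (adjusted p = 0.269) in ch+ and 0.087 (adjusted p = 0.935) in ch-, and the direct test of HL60 against ML1 gave −0.29 (adjusted p = 0.818) in ch+ and −0.75 (adjusted p = 0.387) in ch-. From ch+ to late Mxi1 rose by 0.96 (SE 0.23, adjusted p = 0.00600) in HL60, kept in all 21 fits, while in ML1 the difference was 0.48 (adjusted p = 0.191); the line difference of these contrasts was 0.47 (adjusted p = 0.701). Red cell and neutrophil markers were higher in the early libraries of both lines and Nes low and CAR cell markers in late ones, as given above, and their part in the Mxi1 values was not tested.

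Car12 (ENSMUSG00000032373, chromosome 9 from 66713686 to 66766845) encodes carbonic anhydrase 12, a membrane enzyme that hydrates carbon dioxide outside the cell. Car12 stood at 8.35, 7.89 and 8.88 in the ctrl libraries, 8.89, 8.58 and 8.13 in HL60 ch-, 7.71, 7.50 and 6.55 in HL60 ch+ and 6.82, 7.90 and 6.14 in HL60 late. In ML1, Car12 stood at 8.00, 7.81 and 8.12 in ch-, 6.64, 6.67 and 6.60 in ch+ and 6.38, 6.04 and 5.33 in late libraries. The ML1 ch+ and ML1 late values all lay below every ctrl and ch- value, and HL60 ch+ values lay below those of ctrl and HL60 ch-, while HL60 late 398 (7.90) overlapped with ctrl. Against ctrl the difference was −1.42 (SE 0.37, adjusted p = 0.00978) in HL60 late, lost without HL60 late 399 (−1.02), and −2.46 (SE 0.37, adjusted p = 7.63e-06) in ML1 late, kept in all 21 fits. In ML1 ch+ it was −1.74 (SE 0.37, adjusted p = 0.00360), also kept in all 21 fits. In HL60 ch+ it was −1.12 (SE 0.37, adjusted p = 0.0977), lost on rescaling to equal totals (−1.02) and without ctrl 373 (−1.13) or 375 (−0.87), HL60 ch+ 524 (−1.24) or 525 (−0.77) or HL60 ch- 527 or 528, HL60 late 397, ML1 ch- 543, 544 or 546, ML1 ch+ 538, 539 or 541 or ML1 late 582 (−1.12, the size with all libraries).

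Car12 was the member deregulated between labelled and unlabelled neighbours in early disease in each line. Between ch+ and ch- it fell by 1.28 (SE 0.37, adjusted p = 0.0576) on the log2 scale in HL60, lost without HL60 ch- 527 (−1.10) or 528 (−1.26) or HL60 ch+ 525 (−0.93). In ML1 it fell by 1.34 (SE 0.37, adjusted p = 0.0404), lost without ML1 ch- 543 (−1.33) or 546 (−1.27) or ML1 ch+ 539 (−1.36) or 541 (−1.32). The difference between lines of this contrast was 0.059 (adjusted p = 0.995). Both Car12 calls between ch+ and ch- were lost without the filter and without the trend. The HL60 call was also lost at an adjusted p under 0.05. These alternatives leave the size of the differences unchanged. All 12 chondrocyte genes, Col11a1 the most abundant, were lower than in ctrl in both ch+ groups (median log2 difference −3.60 in HL60 and −4.19 in ML1) and in both late groups (−2.79 and −4.46), while 0 and 1 were lower in HL60 and ML1 ch-, and 11 and 12 were lower in ch+ than in ch- (−2.97 and −3.12). Summed, they stood at 17.72, 16.83 and 17.11 in ctrl, 17.00, 16.91 and 16.20 in HL60 ch-, 15.89, 15.49 and 15.36 in HL60 ch+, 14.81, 14.88 and 14.30 in HL60 late, 16.77, 16.43 and 16.26 in ML1 ch-, 15.41, 15.12 and 15.54 in ML1 ch+ and 12.80, 12.58 and 12.34 in ML1 late. Their sum and Car12 were thus both lower in ch+ and late than in ctrl and ch-, and smooth muscle genes were also lower in ch+ than in ch-, 5 of 8 in HL60 (median log2 difference −1.83) and 4 of 8 in ML1 (−1.46). From ch+ to late, 1 of the 12 chondrocyte genes was higher and 1 lower in HL60 (median log2 difference 0.58). In ML1 0 were higher and 3 lower (−0.31), while the sum was lower in late libraries of both lines. The part of chondrocyte or smooth muscle RNA in the Car12 result was not tested.

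**Figure D3:**
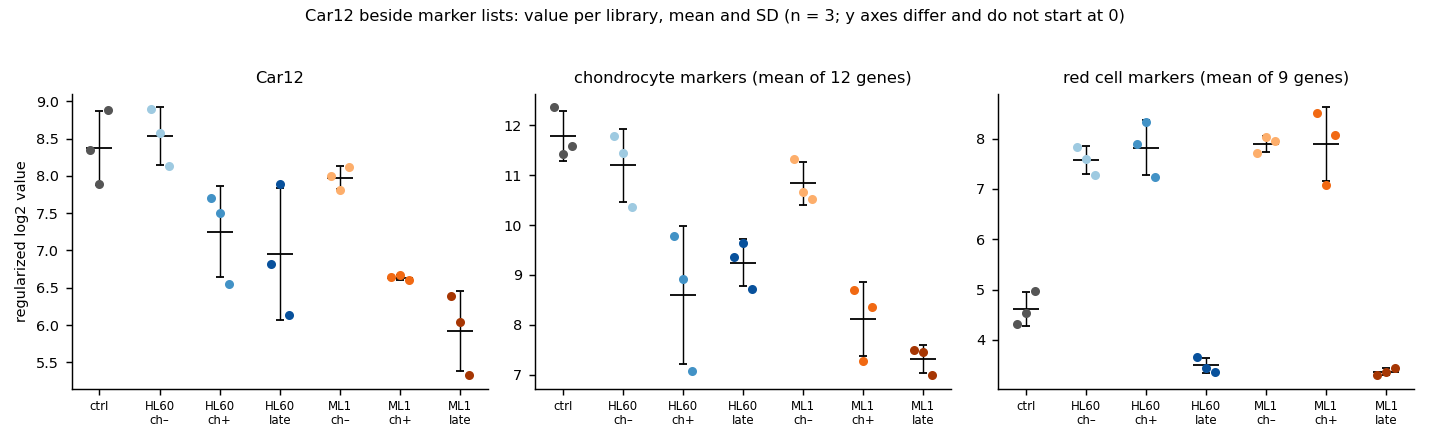
Car12, the mean of the 12 chondrocyte genes and the mean of the 9 red cell genes, in regularized log2 normalized counts (vertical axes) over the 7 groups (horizontal axis), each point being 1 library and each bar the mean with SD of 3 libraries. Car12 stood at 6.38, 6.04 and 5.33 in ML1 late against 8.35, 7.89 and 8.88 in ctrl, and the chondrocyte genes were lower in the same groups as Car12.

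The other hypoxia response genes deregulated in late disease differed between lines in which of them passed the threshold. In HL60 late, Ddit4, an inhibitor of mTORC1 signalling, read 8.08, 9.29 and 7.59 against 7.59, 7.24 and 7.37 in ctrl, a difference of 0.92 (adjusted p = 0.0610) lost without ctrl 374 (0.84) or 375 (0.91) or HL60 late 398 (0.44). Ddit4 also read 8.32, 8.28 and 8.15 in HL60 ch-, all above ctrl though not called, and 7.52, 7.70 and 7.87 in HL60 ch+. In ML1 it read 7.12, 6.25 and 7.24 in ch+ and 7.87, 8.42 and 7.99 in late, a difference of 1.22 (adjusted p = 0.00692) kept in all 21 fits. HL60 against ML1 in late disease gave 0.23 (adjusted p = 0.943) for Ddit4. Bnip3l, a receptor for mitophagy, read 9.75, 9.98 and 9.98 in HL60 late against 9.59, 9.32 and 9.01 in ctrl, a difference of 0.60 (adjusted p = 0.0926) lost without ctrl 374 (0.61) or 375 (0.45), HL60 late 397 (0.67), 398 (0.56) or 399 (0.56) or ML1 late 581, 582 or 583 (0.60, the size with all libraries). In late disease HL60 and ML1 differed in Bnip3l by 0.11 (adjusted p = 0.970). Its relative Bnip3 read 6.63, 5.73 and 6.37 in ML1 late against 6.96, 7.38 and 7.14 in ctrl, a difference of −0.92 (adjusted p = 0.0536) lost on rescaling to equal totals (−0.10) and without ctrl 374 (−0.81) or ML1 late 582 (−0.66), and 0.21 (adjusted p = 0.954) between lines.

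Ndrg1, a stress-induced gene of the NDRG family, read 9.78, 9.11 and 9.17 in ctrl and 8.79, 8.02 and 7.97 in ML1 late, all late values lying below ctrl, with a difference of −1.09 (adjusted p = 0.00178) kept in all 21 fits that left out a library but lost on rescaling to equal totals (−0.28). Against ML1 ch+ (8.90, 8.75 and 9.06) it was −0.64 (adjusted p = 0.0978) with overlapping values, became 0.12 on rescaling to equal totals (−0.67 relative to the median), and was lost without ML1 ch+ 538 (−0.64), 539 (−0.72) or 541 (−0.56), ML1 late 582 (−0.52) or 583 (−0.50) or HL60 ch- 529, HL60 ch+ 524, HL60 late 397 or 399 or ML1 ch- 546 (−0.64, the size with all libraries). Between lines in late disease Ndrg1 differed by 0.52 (adjusted p = 0.452). Adm, which encodes the vasodilator peptide adrenomedullin, read 5.08, 4.23 and 5.02 in ctrl and 6.20, 5.82 and 6.40 in ML1 late, all late values lying above ctrl. The difference was 1.36 (adjusted p = 0.00719), kept in all 21 fits, and −0.78 (adjusted p = 0.405) between lines in late disease. Kdm3a, a histone demethylase induced by HIF, was called in none of the comparisons, its late differences being −0.31 in HL60 and −0.050 in ML1.

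The 2 glucose transporters were deregulated against ctrl in different groups, and both were higher in ML1 late than in ML1 ch+. Slc2a1 (GLUT1) stood at 8.25, 8.09 and 7.63 in ctrl, 7.33, 7.43 and 7.75 in HL60 ch-, 7.21, 7.51 and 6.83 in HL60 ch+ and 7.38, 7.31 and 7.27 in HL60 late. It stood at 7.26, 7.09 and 7.21 in ML1 ch-, 7.23, 7.03 and 7.51 in ML1 ch+ and 7.83, 8.02 and 8.03 in ML1 late. All values of HL60 ch+, HL60 late, ML1 ch- and ML1 ch+ lay below those of ctrl, and ML1 late overlapped with ctrl. Against ctrl Slc2a1 fell by 0.67 (adjusted p = 0.0942) in HL60 late, a call lost on rescaling to equal totals (−0.10) and without ctrl 373 (−0.54) or 374 (−0.62), HL60 late 397 (−0.70), 398 (−0.67) or 399 (−0.65) or HL60 ch- 527 or 528, HL60 ch+ 523, ML1 ch- 546 or ML1 late 581, 582 or 583 (−0.67, the size with all libraries). In HL60 ch+ it fell by 0.81 (adjusted p = 0.0737), lost on rescaling to equal totals (−0.71) and without ctrl 373 (−0.68) or 374 (−0.76) or HL60 ch+ 523 (−0.82) or 525 (−0.63). From ch+ to late in ML1 it rose by 0.70 (adjusted p = 0.0647), lost without ML1 ch+ 538 (0.69) or 539 (0.59) or ML1 late 581 (0.77), 582 (0.67) or 583 (0.67). HL60 against ML1 gave −0.64 (adjusted p = 0.252) in late and −0.071 (adjusted p = 0.973) in ch+.

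Slc2a3 (GLUT3), the higher-affinity transporter, stood at 6.52, 6.68 and 6.31 in ctrl, 6.57, 6.04 and 6.56 in HL60 ch-, 7.31, 7.14 and 7.52 in HL60 ch+ and 7.17, 7.04 and 7.13 in HL60 late. It stood at 6.39, 7.47 and 7.01 in ML1 ch-, 7.51, 5.82 and 7.18 in ML1 ch+ and 7.61, 7.97 and 8.34 in ML1 late. ML1 late values lay above every ctrl value, and HL60 ch+ and late values did too. The ML1 late difference from ctrl was 1.47 (SE 0.35, adjusted p = 0.00276), kept in all 21 fits, and that from ML1 ch+ 1.14 (adjusted p = 0.0275), lost without ML1 ch+ 539 (0.63) or ML1 late 583 (0.96). In HL60 late it was 0.61 (adjusted p = 0.346), and HL60 against ML1 in late disease gave −0.86 (adjusted p = 0.286).

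Of the 10 tested members of upper glycolysis, 1 was lower in HL60 late (7.24% of all tested genes) and 1 higher in ML1 late (9.89%). Pfkfb4, a bifunctional enzyme that sets the level of an allosteric activator of phosphofructokinase, read 6.11, 6.58 and 6.03 in ctrl, 6.24, 5.89 and 6.26 in HL60 ch+ and 4.15, 5.50 and 4.82 in HL60 late. All HL60 late values lay below ctrl and ch+, with differences of −1.42 (adjusted p = 0.0387) from ctrl, lost on rescaling to equal totals (−0.85) and without ctrl 374 (−1.25) or HL60 late 397 (−1.08), and −1.30 (adjusted p = 0.0785) from ch+, lost on rescaling to equal totals (−0.83) and without HL60 ch+ 523 (−1.25), 524 (−1.42) or 525 (−1.24) or HL60 late 397 (−0.97) or 399 (−1.30). HL60 against ML1 in late disease gave −0.74 (adjusted p = 0.644) for Pfkfb4. Pfkfb3, its kinase-dominant relative, read 7.45, 6.55 and 7.06 in HL60 ch+ and 7.96, 8.22 and 8.07 in HL60 late, a difference of 1.06 (adjusted p = 0.0448) lost without HL60 ch+ 524 (0.83) or HL60 late 398 (0.99) or 399 (1.07). The same contrast in ML1 gave 0.74 (adjusted p = 0.162), and the difference between lines 0.32 (adjusted p = 0.916).

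Pfkp, the platelet-type phosphofructokinase, read 6.42, 6.55 and 7.07 in ctrl, 6.91, 6.89 and 6.33 in ML1 ch+ and 7.49, 7.34 and 7.90 in ML1 late. Its ML1 late values lay above both, with a difference from ctrl of 0.89 (adjusted p = 0.0686), lost without ctrl 373 (0.77) or 374 (0.83) or ML1 late 581 (0.94) or 583 (0.73). From ML1 ch+ it was 0.87 (adjusted p = 0.0973), lost without ML1 ch+ 538 (0.97), 539 (0.96) or 541 (0.67), ML1 late 581 (0.91), 582 (0.98) or 583 (0.70) or ctrl 374, HL60 ch+ 523, 524 or 525, HL60 late 397, 398 or 399 or ML1 ch- 544 or 546 (0.87, the size with all libraries). HL60 against ML1 in late disease gave −0.59 (adjusted p = 0.605). The hexokinases Hk1 and Hk2, the isomerases Gpi1 and Tpi1, the phosphofructokinases Pfkl and Pfkm and the aldolase Aldoa were called in none of the comparisons. Their late log2 differences from ctrl ran from −0.48 (Hk1) to −0.022 (Aldoa) in HL60 and from −0.38 (Hk1) to 0.35 (Hk2) in ML1.

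Of the 6 members of lower glycolysis, Pkm was deregulated in late disease in both lines. Pkm (ENSMUSG00000032294, chromosome 9 from 59656368 to 59679375) encodes pyruvate kinase, which makes pyruvate and ATP. Pkm stood at 10.37, 9.75 and 9.78 in the ctrl libraries, 9.83, 10.02 and 9.80 in HL60 ch-, 10.09, 9.61 and 9.75 in HL60 ch+ and 9.46, 9.20 and 9.65 in HL60 late. In ML1, Pkm stood at 10.21, 9.63 and 9.87 in ch-, 9.60, 9.49 and 9.60 in ch+ and 9.39, 9.13 and 9.13 in late libraries. All late values lay below all ctrl values, and the ch- and HL60 ch+ values overlapped with ctrl. Pkm stood lower than ctrl in HL60 late, with a log2 difference of −0.53 (SE 0.19, adjusted p = 0.0716), a direction that reversed on rescaling to equal totals (0.042, or −0.53 relative to the median of all tested genes), and the call was lost without ctrl 373 (−0.33) or HL60 late 397 (−0.54) or 398 (−0.41). In ML1 late it also stood lower, with a difference of −0.75 (SE 0.19, adjusted p = 0.00406), kept in all 21 fits but reversed on rescaling (0.067, or −0.78 relative to the median). Of the 7 alternatives run other than leaving out a library, 1 kept the HL60 late call of Pkm and 5 kept the ML1 late call.

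Eno1, the ubiquitous enolase, read 10.13, 9.07 and 9.21 in ctrl and 8.77, 8.71 and 8.36 in ML1 ch+, ctrl 373 standing above the other two. It fell in ML1 ch+ by 0.86 (adjusted p = 0.0323), a call lost without ctrl 373 (−0.53) or ML1 ch+ 541 (−0.73), and HL60 against ML1 in ch+ gave 0.30 (adjusted p = 0.832). Eno2, the neuronal enolase, read 4.71, 4.97 and 4.67 in ctrl and 6.03, 5.74 and 6.82 in ML1 late, all late values lying above ctrl. The difference was 1.41 (adjusted p = 0.0174), lost without ML1 late 583 (1.10). In HL60 late it was 1.06 (adjusted p = 0.120), and between lines in late disease −0.35 (adjusted p = 0.924). Gapdh, Pgk1 and Pgam1, which act between the triose phosphates and enolase, were called in none of the comparisons, with late differences from −0.65 (Pgk1) to −0.35 (Gapdh) in HL60 and from −0.28 (Pgk1) to −0.16 (Gapdh) in ML1.

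Of the 6 genes for the fate of lactate and pyruvate, 1 was higher and 1 lower in HL60 late (6.46% and 7.24% of all tested genes) and 1 higher and 2 lower in ML1 late (9.89% and 12.1%). Ldha (ENSMUSG00000063229, chromosome 7 from 46841475 to 46855627) encodes the lactate dehydrogenase subunit that favours lactate. Ldha stood at 10.72, 10.52 and 10.38 in the ctrl libraries, 10.26, 10.01 and 10.39 in HL60 ch-, 10.02, 9.89 and 10.08 in HL60 ch+ and 10.01, 9.80 and 10.25 in HL60 late. In ML1, Ldha stood at 10.36, 9.92 and 10.13 in ch-, 10.10, 10.04 and 10.18 in ch+ and 10.10, 10.09 and 10.25 in late libraries. Every late and every ch+ value lay below the lowest ctrl value, and the ch- values did too except HL60 529, which stood just above it. Ldha stood lower than ctrl in HL60 late, with a log2 difference of −0.52 (SE 0.16, adjusted p = 0.0282), a direction that reversed on rescaling to equal totals (0.050, or −0.53 relative to the median of all tested genes), and the call was lost without ctrl 373 (−0.43) or HL60 late 398 (−0.41). In ML1 late it also stood lower, with a difference of −0.39 (SE 0.16, adjusted p = 0.0880), reversed on rescaling to 0.43 (−0.42 relative to the median) and lost without ctrl 373 (−0.30) or 374 (−0.40), ML1 late 581 (−0.36), 582 (−0.36) or 583 (−0.44) or HL60 late 397 (−0.39, the size with all libraries). In HL60 ch+ it fell by 0.54 (adjusted p = 0.0492), lost on rescaling to equal totals (−0.44) and without ctrl 373 (−0.45) or 374 (−0.55) or HL60 ch+ 523 (−0.55) or 524 (−0.49), while ML1 ch+ gave −0.43 (adjusted p = 0.127) and HL60 against ML1 in ch+ −0.11 (adjusted p = 0.927).

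Pdk4 (ENSMUSG00000019577, chromosome 6 from 5483351 to 5496309) encodes a kinase that inhibits pyruvate dehydrogenase. Pdk4 stood at 9.06, 8.94 and 9.45 in the ctrl libraries, 9.73, 9.87 and 10.31 in HL60 ch-, 9.86, 9.77 and 9.90 in HL60 ch+ and 9.81, 10.47 and 9.48 in HL60 late. In ML1, Pdk4 stood at 9.83, 9.64 and 9.14 in ch-, 9.11, 9.16 and 8.34 in ch+ and 9.98, 10.37 and 10.11 in late libraries. All late, all HL60 ch- and all HL60 ch+ values lay above the highest ctrl value, whereas ML1 ch+ values overlapped with ctrl. Against ctrl the difference was 0.77 (SE 0.24, adjusted p = 0.0321) in HL60 late, lost without ctrl 374 (0.67) or HL60 late 398 (0.49). In ML1 late it was 1.00 (SE 0.24, adjusted p = 0.00225), kept in all 21 fits. Of the 7 alternatives other than leaving out a library, 5 kept the HL60 late call of Pdk4 and all 7 the ML1 late call. In HL60, ch+ differed from ctrl by 0.69 (adjusted p = 0.113) and ch- by 0.82 (adjusted p = 0.101). From ch+ to late Pdk4 rose by 1.28 (SE 0.24, adjusted p = 1.75e-04) in ML1, kept in all 21 fits, while in HL60 the difference was 0.076 (adjusted p = 0.928). The difference between lines of this contrast was −1.21 (SE 0.33, adjusted p = 0.0572), lost without HL60 ch+ 523 (−1.20) or 525 (−1.18), HL60 late 397 (−1.15) or 399 (−0.99), ML1 ch+ 541 (−0.94) or ML1 late 582 (−1.10) or 583 (−1.23). This line difference also lost its call without the filter, without the trend and at an adjusted p under 0.05. The higher Nes low and CAR cell marker sums in late libraries are given above, and their part in the Pdk4 values was not tested.

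Pdk1, the kinase of the same family that HIF induces, read 6.29, 5.41 and 6.35 in ctrl and 5.29, 4.60 and 4.69 in ML1 late, all late values lying below ctrl. The difference was −1.15 (adjusted p = 0.0663), lost on rescaling to equal totals (−0.34) and without ctrl 373 (−1.02) or 375 (−0.99) or ML1 late 582 (−1.02) or 583 (−1.07), and HL60 against ML1 in late disease gave 0.51 (adjusted p = 0.839). Slc16a1 (MCT1), a lactate and pyruvate transporter, read 5.97, 6.45 and 6.30 in ML1 ch+ and 4.61, 5.37 and 5.61 in ML1 late, a difference of −1.04 (adjusted p = 0.0857) lost on rescaling to equal totals (−0.28) and without ML1 ch+ 539 (−0.94) or 541 (−1.01) or ML1 late 581 (−0.75) or 582 (−1.13). The same contrast in HL60 gave −0.22 (adjusted p = 0.859), and the difference between lines 0.83 (adjusted p = 0.703). Ldhb, the other lactate dehydrogenase subunit, and Slc16a3 (MCT4), a lactate exporter, were called in none of the comparisons, with late differences of 0.053 and −1.00 in HL60 and −0.22 and −0.75 in ML1.

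**Figure D4:**
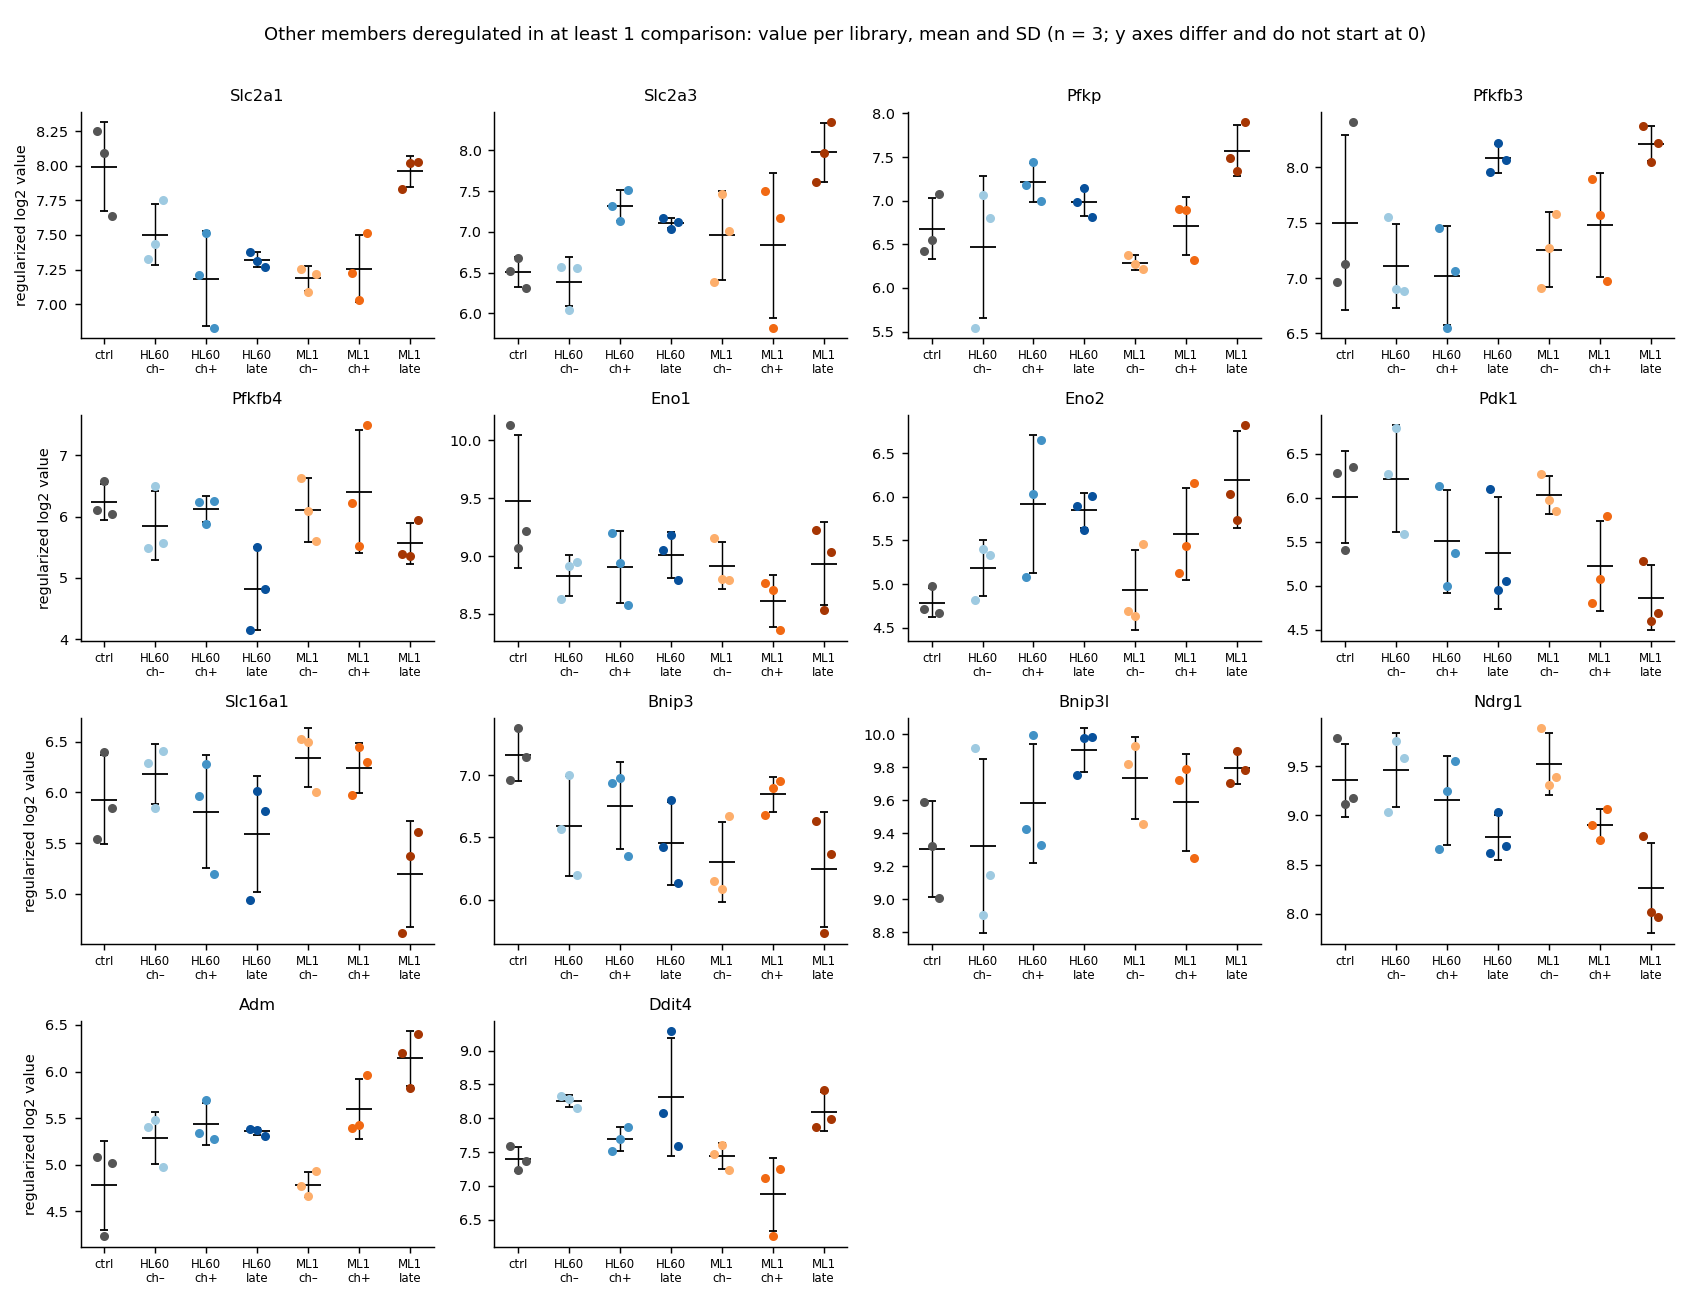
Regularized log2 normalized counts (vertical axis) in the 7 groups (horizontal axis) of the 14 other members deregulated in at least 1 comparison, each point being 1 library and each bar the mean with SD of 3 libraries. Slc2a3 stood at 7.61, 7.97 and 8.34 in ML1 late against 6.52, 6.68 and 6.31 in ctrl, and Pfkfb4 at 4.15, 5.50 and 4.82 in HL60 late against 6.11, 6.58 and 6.03.

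Tested directly, the lines differed in few members. HL60 against ML1 in late disease gave 1 of 36 (4.09% of all tested genes), Epas1, lower in HL60 (0.932%), and this count became 0 without HL60 ch- 527, HL60 ch+ 524, HL60 late 397 or 398, ML1 ch- 546, or ML1 late 581 or 583. In ch+ limma called 0 of 36 (0.0154%), with 4 at an unadjusted p under 0.05, and in ch- 0 of 36 (0.0539%), with 3. For the difference between lines in the ch+ against ch- contrast it called 0 of 36 (0.00771%), with 1 at an unadjusted p under 0.05. For the difference between lines in the late against ch+ contrast it called 1 of 36 (2.5%), Pdk4, lower in HL60 (0.74%). That count became 0 without HL60 ch+ 523 or 525, HL60 late 397 or 399, ML1 ch+ 541, or ML1 late 582 or 583, and 2 without ML1 ch+ 538.

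Other genes of the same pathways, listed by name, were counted in the same fits. Of 18 tested genes of glycolysis and pyruvate metabolism, limma called 0 in HL60 late (13.7% of all tested genes, and 3 of the 18 at an unadjusted p under 0.05) and 1, Pdk2, lower in ML1 late (−0.83; 12.1% of all tested genes were lower), a call lost on rescaling to equal totals (−0.013). Of 36 tested hypoxia genes, 1 was higher (6.46% of all tested genes) and 8 lower (7.24%) in HL60 late, and 5 higher (9.89%) and 8 lower (12.1%) in ML1 late. In ch+ against ctrl 1 was higher (2.87%) and 3 lower (2.46%) in HL60 and 2 higher (3.47%) and 1 lower (3.22%) in ML1. In ch- against ctrl limma called 0 in either line (1.57% in HL60 and 2.34% in ML1), with 3 at an unadjusted p under 0.05 in each. From ch+ to late, 2 of the 36 were higher (4.25%) and 5 lower (5.95%) in HL60 and 3 higher (7.07%) and 5 lower (9.83%) in ML1. Of the 18, 1 was lower in HL60 in that contrast, Bpgm (−1.23), and 2 in ML1, Pdk2 (−0.81) and Pdhb (−0.74), and rescaling to equal totals ended all 3 calls (−0.76, −0.052 and 0.017). Red cell genes were lower in the same contrast, 8 of 9 in HL60 (median log2 difference −4.54) and 9 of 9 in ML1 (−4.29). Their part in these 3 calls was not tested. The Bpgm call was also lost without HL60 ch+ 523 (−1.21) or 524 (−1.24) or HL60 late 399 (−1.09), the Pdk2 call without ML1 ch+ 539 (−0.71) or 541 (−0.74) or ML1 late 581 (−0.75), and the Pdhb call without ML1 ch+ 538 (−0.65) or 541 (−0.59) or ML1 late 581 (−0.79), 582 (−0.77) or 583 (−0.67) and under each of the 7 alternatives run for it.

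The hypoxia genes lower in late disease in both lines were P4ha1, P4ha2, P4hb, Plod2, Lox, Vldlr and Bhlhe40. The prolyl 4-hydroxylase subunits P4ha1 and P4ha2, which act on collagen, differed from ctrl by −1.11 and −0.79 in HL60 late and by −0.94 and −0.86 in ML1 late. Their partner P4hb differed by −0.37 and −0.46. Rescaling to equal totals reversed these directions (0.20 and 0.36), while it moved the median of all tested genes to 0.58 and 0.84. The lysyl hydroxylase Plod2 differed by −0.97 and −1.98, and the lysyl oxidase Lox by −0.59 and −1.13. The lipoprotein receptor Vldlr differed by −1.04 and −2.45, and the transcriptional repressor Bhlhe40 by −1.11 and −0.90. In HL60 late the P4ha2 call was lost without ctrl 373 (−0.65) or 375 (−0.70) or HL60 late 398 (−0.74) or 399 (−0.75), and the P4hb call without ctrl 373 (−0.27) or 375 (−0.34) or HL60 late 398 (−0.28). On rescaling to equal totals the HL60 late calls of P4ha2 (−0.22), Lox (−0.021) and Vldlr (−0.47) were lost, as were the ML1 late calls of P4ha1 (−0.13), P4ha2 (−0.046) and Bhlhe40 (−0.082). Osteoblast markers were lower in the same late libraries, with a sum of 20.26, 20.41 and 20.71 in ctrl, 18.95, 19.01 and 18.62 in HL60 late and 17.04, 16.36 and 16.51 in ML1 late, against 19.98, 20.23 and 20.31 in HL60 ch-, 20.03, 19.85 and 19.84 in HL60 ch+, 20.21, 20.41 and 20.47 in ML1 ch- and 19.96, 19.85 and 20.08 in ML1 ch+, and their part was not tested.

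The EGFR inhibitor Errfi1 was higher in both late groups (0.47 and 1.27), the HL60 call being lost without ctrl 373 (0.24) or HL60 late 398 (0.27). It was also higher in ch+ than in ch- (0.62 in HL60 and 0.62 in ML1), the HL60 call being lost without HL60 ch- 527 (0.55). From ch+ to late, Vldlr (−0.68 and −2.30), Bhlhe40 (−1.00 and −0.77) and Plod2 (−0.53 and −1.84) were lower in both lines, the HL60 Vldlr call being lost without HL60 ch+ 523 (−0.62) or 525 (−0.60) or HL60 late 398 (−0.60). Rescaling ended the HL60 calls of Vldlr (−0.21) and Plod2 (−0.063) and the ML1 call of Bhlhe40 (−0.0086) in that contrast.

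Since many of the members are known targets of HIF, their promoters were read for the hypoxia response element. The letters sought were ACGTG, a form of its core, and the reverse complement CACGT. Other forms of the core, such as GCGTG, were not counted. The 300-base windows reach from upstream to just past RefSeq transcript starts (GRCm38.p6). Of the 39 members, 35 were matched by symbol, with 52 windows (Slc2a3, Epas1, Bnip3l and Ndrg1 were not matched). The letters occurred in 26 of the 52 windows (50.0%), against 6447 of all 32851 windows (19.6%). By gene, 22 of 35 members held a match in at least 1 window (62.9%), against 5886 of 27025 genes (21.8%). They were present in 1 of 1 glucose transporter (Slc2a1), 6 of 11 upper glycolysis genes, 4 of 6 lower glycolysis genes, 3 of 6 lactate and pyruvate genes, 3 of 3 of the HIF and EGLN genes matched and 5 of 8 hypoxia response genes. Among members higher in late disease, 2 of 3 held a match in HL60 and 1 of 5 in ML1, and among those lower 3 of 5 and 3 of 5. A match describes the letters and not a bound site. The comparison set was every gene with a window, whether or not it was tested here, and the base composition of the windows was not compared.

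Printed 5′ to 3′ on the plus strand, with every match of either orientation in capitals, are windows of 3 members deregulated in late disease in both lines, chosen to show many, 1 and no matches: Ldha at chr7:46845554-46845853 (5 matches, some of them overlapping in the palindrome CACGTG), Mxi1 at chr19:53329163-53329462 (1 match) and Car12 at chr9:66713436-66713735 (0 matches). The windows of Ldha and Mxi1 lie inside the spans given above for these genes, around RefSeq starts that lie downstream of the gene starts in GENCODE. Ldha has 1 other window, with 0 matches, and Mxi1 2 others, with 0 and 1.
Ldha: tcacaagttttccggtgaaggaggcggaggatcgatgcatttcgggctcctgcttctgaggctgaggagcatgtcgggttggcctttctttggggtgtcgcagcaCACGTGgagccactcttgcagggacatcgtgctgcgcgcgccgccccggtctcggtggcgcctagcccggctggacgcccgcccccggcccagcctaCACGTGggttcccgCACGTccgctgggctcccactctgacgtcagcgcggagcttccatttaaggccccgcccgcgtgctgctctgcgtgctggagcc
Mxi1: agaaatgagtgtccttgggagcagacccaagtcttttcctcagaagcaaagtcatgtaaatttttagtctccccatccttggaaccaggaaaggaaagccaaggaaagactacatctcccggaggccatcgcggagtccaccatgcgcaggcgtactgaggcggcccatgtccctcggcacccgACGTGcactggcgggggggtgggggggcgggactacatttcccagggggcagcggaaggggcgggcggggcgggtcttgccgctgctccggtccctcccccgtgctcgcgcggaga
Car12: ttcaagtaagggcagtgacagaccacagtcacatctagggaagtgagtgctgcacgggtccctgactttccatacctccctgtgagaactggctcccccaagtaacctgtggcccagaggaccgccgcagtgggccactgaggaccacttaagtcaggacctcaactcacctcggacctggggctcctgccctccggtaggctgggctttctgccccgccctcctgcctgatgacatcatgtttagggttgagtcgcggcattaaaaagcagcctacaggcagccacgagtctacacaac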

How the data were processed

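RNA of sorted Nes low cells was amplified and sequenced in 21 libraries. Per the notes with the data, the authors aligned reads with STAR 2.5.1b to mm10, counted genes with RSEM 1.2.29 and normalized them with DESeq2 1.10.1. The deposited values are regularized log2 normalized counts; the study's methods speak of log10, but the range from −2.33 to 22.44 was read as log2. The read depth of each single library is not given in the sources used here. Genes with a mean of at least 10 normalized counts (12976 of 26852) were fitted with limma 3.58.1 (R 4.3.3) as 7 groups of 3 libraries, empirical Bayes with a mean-variance trend, 2-sided, Benjamini-Hochberg adjusted over all tested genes, threshold 0.1. Python 3.11.15 (pandas 2.3.3, numpy 2.4.6, matplotlib 3.10.9) gave values, promoter matches and plots. Symbols, positions and merged exon lengths came from GENCODE M21, and promoter windows from RefSeq (GRCm38.p6).

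The members, the further pathway genes and the marker lists (Nes low and CAR cell, red cell, neutrophil, blood cell, skeletal muscle, smooth muscle, osteoblast, chondrocyte, endothelial, adipocyte, proliferation) were chosen with earlier results of these data known. Values in every library are given for members deregulated in the same direction in both lines in the same comparison, for members called between lines, and for Hif1a, Epas1, Egln1 and Egln3. Other members were given values where called, after these were seen. Further pathway genes are counted, with values for those called in the same direction in both lines, and Pdk2, Bpgm and Pdhb were named after their values were seen; 1 gene of that list is not reported here. Alternatives were no filter, rescaling to library totals, quantile normalization, no trend, an adjusted p under 0.05, both lines pooled within a stage, and leaving out each library. Rescaling without the ribosomal RNA gene CT010467.1, and the order of title numbers as a replicate block for ch+ against ch-, were chosen after seeing the data.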

Additional observations from a re-analysis of the deposited data

Results flagged for a closer look

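The direct limma tests between HL60 and ML1 marked 10 results, each a difference between the lines at an adjusted p under 0.1. Among members, Epas1 in late disease was lower in HL60 than in ML1 (log2 difference −0.47), and the late against ch+ contrast of Pdk4 was lower in HL60 by −1.21. Among the further hypoxia genes in late disease, HL60 stood above ML1 for Lox (0.54), Vldlr (1.41) and Plod2 (1.01) and below it for Errfi1 (−0.80). In the late against ch+ contrast, HL60 less ML1 was 0.80 for Lox, 1.62 for Vldlr, 1.31 for Plod2 and −1.73 for Hmox1. Marker genes of other cells differed between the lines as well: 9 of 10 osteoblast genes (median log2 difference 1.89) and 8 of 12 chondrocyte genes (2.04) were higher in HL60 late than in ML1 late, and 8 and 4 in the late against ch+ contrast (1.88 and 1.46), and their part in these results was not tested. Rescaling to library totals ended both Lox calls (0.29 in late disease, 0.51 in the late against ch+ contrast). The Hmox1 call was lost without HL60 ch+ 523 (−1.57), HL60 late 397 (−1.61), or ML1 late 582 (−1.67) or 583 (−1.51). No test of single outlying libraries was run.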

How the results depend on the processing

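Under the 7 alternatives run for them other than leaving out a library, the late calls of Epas1, Mxi1 and Car12 against ctrl in both lines, and those of Pdk4, Slc2a3, Adm and Eno2 in ML1, kept their direction and stayed past the threshold. Against ctrl, 1 of the 7 kept the calls of Pkm in HL60 late, Ldha in ML1 late and Car12 in HL60 ch+. In ML1 late against ch+, 1 of the 7 kept those of Slc16a1 and Ndrg1. The calls of Slc2a1 in HL60 late and Mxi1 in ML1 ch- against ctrl were kept under 2 of the 7. Of 159 single-gene results, 149 kept both direction and side of the threshold under quantile normalization, 130 under an adjusted p under 0.05, 129 without the trend, 124 without the filter, 113 on rescaling to library totals and 122 on rescaling without the rRNA gene, as did 110 of 130 with the lines pooled.

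Called members are given here with the share of all genes called in the same fit. Without the filter 39 members were tested, the 3 below it (Aldoc, Car9 and Ankrd37) joining, and Aldoc was lower in all 6 comparisons with ctrl. Aldoc stood at 1.455, 1.261 and 1.138 in ctrl and between 0.60 and 0.88 elsewhere. All of these lie far below the filter, where the regularized scale draws values together, so these calls say little about Aldoc. Called members then numbered 6 in HL60 late (5.26%), 1, Aldoc, in HL60 ch- (0.495%) and 2, Aldoc and Slc2a1, both lower, in ML1 ch- (0.663%) against ctrl, 0 between ch+ and ch- in either line (1.51% and 1.39%), 2 in HL60 late against ch+ (4.04%), 0 between lines in late disease (1.59%) and 0 for the line difference in late against ch+ (0.894%). Without the trend they numbered 1 in HL60 ch+ (3.8%), 5 in ML1 ch+ (5.18%), 1 in HL60 ch- (1.06%) and 0 in ML1 ch- (1.31%) against ctrl, 0 between ch+ and ch- in either line (2.91% and 3.15%), and 0 in both tests between lines in late disease (3.03% and 1.73%). At an adjusted p under 0.05, a stricter threshold, they numbered 6 in HL60 late (10.6%), 1 in HL60 ch+ (3.55%) and 0 in ML1 ch- (1.37%) against ctrl, 0 between ch+ and ch- in HL60 (2.71%), 4 in ML1 late against ch+ (13.5%) and 0 in both tests between lines in late disease (3.18% and 1.9%). Quantile normalization gave 1 in HL60 ch- against ctrl (1.52%) and 2 between ch+ and ch- in ML1 (4.23%). With the lines pooled, 0 were called in ch- against ctrl (1.92%) and 10 in late against ch+ (19.7%).

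Rescaling to library totals, which shifts all genes of a library alike, gave 23 called members in ML1 late (67.7%) and 1 in HL60 ch+ (5.83%) against ctrl, the latter being Pdk4, higher, while the 3 lower calls were lost, and 1 lower in ML1 ch- (2.6%) in place of 1 higher, with 14 and 24 in HL60 and ML1 late against ch+ (30.2% and 64%), and 2 between lines in late disease (5.43%). It turned 16 of 36 members (44.4%) from negative to positive in each late comparison with ctrl, as it did 35.9% of all tested genes in HL60 and 36.4% in ML1. Among the single-gene results followed here it reversed Pkm (0.042 in HL60 late, 0.067 in ML1 late), Ldha (0.050 and 0.43), P4hb (0.20 and 0.36) and Hif1a (0.49 and 0.77), and in late against ch+ Hif1a in HL60 (0.37) and Ndrg1 (0.12), Pdhb (0.017) and P4hb (0.40) in ML1. Without the rRNA gene, an alternative chosen after seeing the data, it gave 1 higher in HL60 ch+ (5.05%) and 1 higher in HL60 ch- (1.46%) against ctrl and 8 and 23 in HL60 and ML1 late against ch+ (23.8% and 49.4%), and reversed P4hb (0.064 in HL60 late, 0.13 in ML1 late, 0.21 in ML1 late against ch+), Ldha (0.20) and Hif1a (0.54) in ML1 late. For the counts that moved without the trend or on quantile normalization, the cause was not tested.

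Leaving out each library in turn gave 4 to 10 called members in HL60 late, 9 to 14 in ML1 late, 0 to 4 in HL60 ch+, 2 to 4 in ML1 ch+, 0 to 1 in HL60 ch- and 0 to 2 in ML1 ch- against ctrl. Between ch+ and ch- it gave 0 to 1 in HL60 and 0 to 2 in ML1, and in late against ch+ 2 to 4 and 4 to 9. Between lines it gave 0 to 1 in late disease, 0 to 0 in ch+ and in ch-, 0 to 0 for the ch+ against ch- contrast and 0 to 2 for the late against ch+ contrast. The share of all tested genes called was not counted in these fits.

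The study describes ch- cells as lying in the same marrows as ch+ cells, and in each line their title numbers run in parallel order, although no number is shared. Deviations from the group means were correlated over the tested genes. For libraries in the same place of that order, r was 0.0039, 0.025 and 0.046 in HL60 and 0.0036, −0.021 and 0.019 in ML1. For libraries in other places it was −0.035 to 0.012 in HL60 and −0.033 to 0.026 in ML1. Not every library correlated best with the one in its own place. With 3 libraries in a group and an order that the labels do not explain, these values cannot tell whether libraries shared a marrow. The libraries were tested as independent because the labels give no pairing, and those tests leave any shared marrow out of account. With that order as a replicate block, an alternative chosen after seeing the data, 1 member was called between ch+ and ch- in HL60 (4.25%), Car12, 2 in ML1 (4.76%), Car12 and Pdk4, all lower in ch+, and 0 for the difference between lines. Whether 3 libraries of a group are 3 mice, pools or repeats is not given in the labels, and the read depth of each library is not given, so counting error could not be set apart from other spread. The regularized scale draws low values together, and whether this narrowed differences of scarce members such as Egln3 and Slc16a3 was not tested. Line and stage were each one set of libraries, so a batch in sorting or amplification cannot be told apart from them. RNA levels do not measure HIF protein, enzyme activity or flux.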
